A study of Mus musculus with 6 samples.

Results

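Transcripts of macrophages and other leukocytes were followed in isolated mouse pancreatic islets cultured with or without prolactin. The set holds 35 genes, taken by gene name from a list of leukocyte genes and not by any measured value in its rule, out of 48397 gene names counted, and all 35 were among the 23924 genes tested. The islets came from wild-type mice of the C57B6 strain and held mixed cell types. After overnight recovery they were cultured for 24 h with DMSO in the control group (3 libraries) or with recombinant mouse prolactin at 500 ng/mL in the prolactin group (3 libraries). Polyadenylated RNA of whole islets was sequenced, so that leukocytes were not sorted and their RNA was read within that of the endocrine cells. The labels give no age or sex of the mice, and do not say whether replicates were separate animals or cultures, so every p-value below reflects the scatter among these libraries alone, part of which may be technical.

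Islets contain resident macrophages, which lie beside the capillaries and beta cells, depend on the growth factor receptor CSF1R, take up material shed by beta cells and present antigen on MHC class II. Their surface receptors signal through small adaptors with an activating motif, their lysosomes cut and reduce proteins for antigen presentation, and they secrete complement C1q and, on activation, interleukin-1 beta and tumour necrosis factor. Prolactin, made by the pituitary, signals through a receptor of the cytokine receptor family that beta cells carry.

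Read counts per library ranged from 230833584 to 530296257, the highest being control replicate 1. Levels are CPM, read counts relative to the TMM-scaled library total, and for comparing one gene with another, CPM per kilobase of exon. Prolactin replicates 2 and 3 were closer to each other than any other pair of libraries, with a median absolute difference of 0.031 on the log2 scale over genes above 5 CPM, against 0.067 to 0.134 for the other pairs. Their counts differed by more than counting noise (chi-square of 7.24 per degree of freedom, against 88.4 or more for the other pairs), which does not tell whether they came from separate cultures. They were counted as 2 libraries, and a call that is lost when they are summed is named as such. The other cells of the islet were followed by marker lists. The summed level of 10 acinar enzyme genes ran from 442.4 to 2652 CPM in control and from 741.1 to 1778 CPM in prolactin, and that of 10 stromal genes from 350.0 to 526.0 CPM in control and from 721.1 to 888.6 CPM in prolactin, with 2 of the 10 stromal genes past the test below. For 10 endothelial genes the sums were 274.5 to 307.8 CPM and 320.0 to 327.8 CPM, with 1 of the 10 past the test. The stromal calls, Col1a1 and Col1a2, were each kept in 1 of the 6 fits without 1 library (highest edgeR adjusted p = 0.136 and 0.158). The endothelial call, Vwf, was kept in 3 of these 6 fits (highest adjusted p = 0.129).

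The leukocyte transcripts as a set were at nearly the same level in both conditions, and 1 gene, the lysosomal reductase gene Ifi30, fell. The summed level of the 35 genes was 387.6, 406.4 and 399.8 CPM in control replicates 1, 2 and 3, and 372.8, 413.7 and 414.6 CPM in prolactin replicates 1, 2 and 3. The prolactin libraries thus held both the lowest and the highest sum, on either side of the controls, with means of 397.9 ± 9.5 and 400.4 ± 23.9 CPM (SD, n = 3 each). In whole islets, a change in the number of leukocytes and a change in RNA per leukocyte cannot be told apart.

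In edgeR's quasi-likelihood test over all genes, 0 of the 35 genes were higher and 1 was lower in prolactin with the adjusted p below 0.05, and 34 did not pass. With the unadjusted p below 0.05, 1 was higher and 3 were lower. DESeq2 called 0 higher and 2 lower, and limma-voom 0 higher and 1 lower. Of all genes tested, edgeR called 0.652% higher and 0.104% lower. The share with the unadjusted p below 0.05 was 7.78% higher and 6.68% lower, so that 3 of 35 lower was near the background. DESeq2 called 4.1% higher and 1.6% lower of the 18913 genes that it gave an adjusted p, and limma-voom 0.652% and 0.0878%. The median log2 change of the set was 0.02, with 20 of 35 changes positive, beside 0.0004 over all genes tested. In 26 of 35 genes the change lay within 0.2 on the log2 scale, that is within 1.15-fold either way. For the 31 genes that averaged 1 CPM or more the standard error (SE) of the log2 change ran from 0.050 to 0.263, with a median of 0.103. Shifts well above the SE also failed the test, as in Fcgr3 (log2 change -0.36, SE 0.09) and Lgals3 (0.26, SE 0.08). A gene that did not pass may therefore still have shifted.

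**Figure D1:**
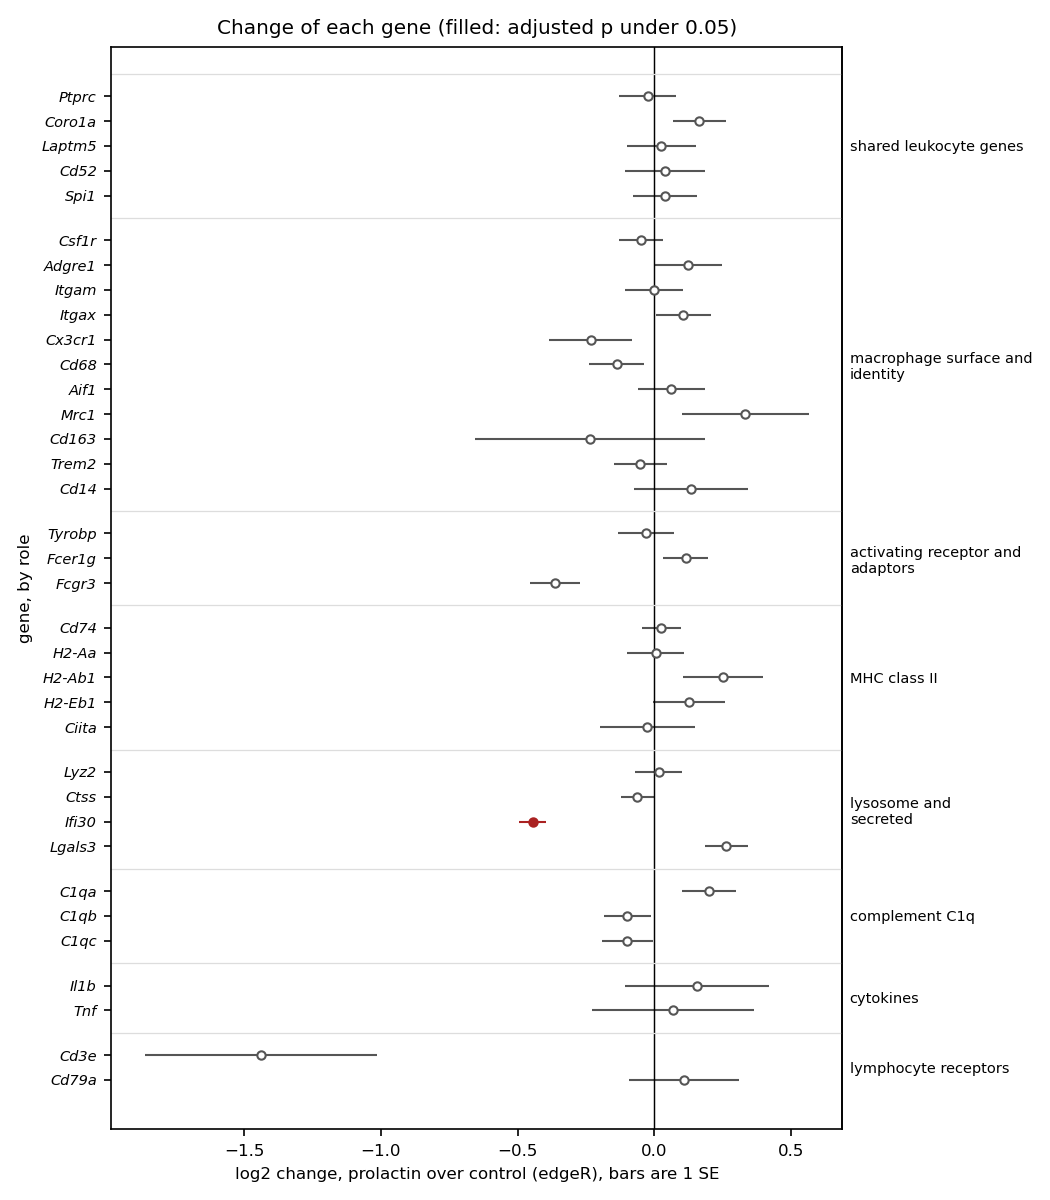
Log2 change in prolactin over control for each of the 35 genes by role, from edgeR, with bars of 1 SE and 3 libraries per condition; a filled point marks an adjusted p under 0.05. Ifi30 is the 1 filled point, at -0.45. Most other points lie near 0, and the widest bars belong to Cd3e and Cd163, genes with few reads.

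In 2 genes (Coro1a and Lgals3) all 3 prolactin libraries lay above all 3 control libraries, and in 3 genes (Fcgr3, Ifi30 and Cd3e) below them. These shares, 5.71% and 8.57%, were near those over all genes tested, 11.3% and 10.4%, and are therefore not a result about the set. In the remaining 30 genes the groups overlapped.

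The labels describe the islets as mixed cells, and the leukocyte types among them were read from marker genes. Per kilobase of exon, the highest mean levels over the 6 libraries were those of Ifi30 (42.9), Cd74 (39.8), C1qa (35.4), Ctss (21.5) and Lgals3 (18.3 CPM per kilobase). Macrophage-defining genes were all detected in every library, among them the growth factor receptor gene Csf1r (1.92 CPM per kilobase), the adhesion receptor gene Adgre1 that encodes F4/80 (0.953) and the fractalkine receptor gene Cx3cr1 (0.954). Across the 33 genes other than the lymphocyte receptors, the median level was 2.19 CPM per kilobase. It was 0.762 in 18 further myeloid genes.

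Marker lists of other leukocyte lineages had far lower medians. The lists are not alike in kind, since the 33 genes also hold genes shared by all leukocytes, such as Ptprc. Single genes of the 33 ran from 0.0214 to 42.9 CPM per kilobase. The median level was 0.0324 CPM per kilobase in 14 genes of T and NK cells, 0.047 in 7 genes of B and plasma cells, 0.0118 in 9 neutrophil genes, 0.0538 in 8 dendritic-cell genes and 0.00344 in 5 mast-cell genes. Of these 43 lineage genes, 19 had no read in at least 1 library. The labelled mixture of islet cells thus held macrophage transcripts in every library, and most genes of the other lineages at far lower levels. Of the 43 lineage genes, those above 1 CPM per kilobase were Lck, a T-cell kinase gene (1.35), and the calprotectin genes S100a8 (1.93) and S100a9 (8.73), named here after their values were seen. Among the 35 genes, the B-cell receptor gene Cd79a also lay above that level, at 1.06 CPM per kilobase, a little above Adgre1 and Cx3cr1.

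**Figure D2:**
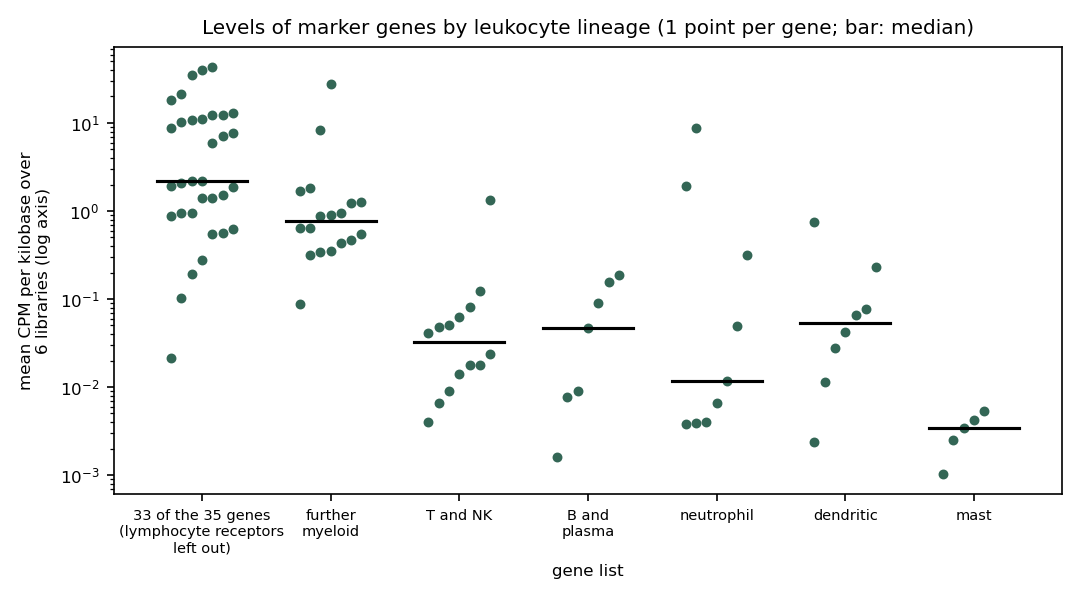
Mean CPM per kilobase over the 6 libraries on a log axis, 1 point per gene and a bar at the median of each list. The 33 genes other than the lymphocyte receptors, some of them shared by all leukocytes, have a median of 2.19 and the further myeloid genes 0.762. Medians of the other lineages lie at 0.0538 or below.

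The genes shared by all leukocytes come first by role. Ptprc encodes CD45, the tyrosine phosphatase on the surface of all leukocytes. It stood at 5.87, 4.62 and 5.02 CPM in control replicates 1, 2 and 3 and at 4.95, 5.03 and 5.28 CPM in prolactin replicates 1, 2 and 3. The prolactin values lay inside the control range, and the log2 change was -0.03 (SE 0.10, edgeR adjusted p = 0.936). Coro1a, an actin-binding protein of leukocytes, was at 6.11, 6.15 and 5.12 CPM in control and 6.33, 6.95 and 6.20 CPM in prolactin. The prolactin libraries were all above the controls by a narrow margin, and the change of 0.16 did not pass (SE 0.10, adjusted p = 0.488). The exons of Coro1a overlap those of Bola2 on the opposite strand, and the counting did not use strand.

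Laptm5, a lysosomal membrane protein that lowers antigen-receptor levels, ranged from 6.65 to 9.52 CPM in control and from 7.51 to 8.65 CPM in prolactin. The small surface glycoprotein gene Cd52 (1.78, 1.69 and 1.46 against 1.42, 1.75 and 1.89 CPM) was among the low genes, and its groups overlapped. Spi1 encodes PU.1, the transcription factor that sets the myeloid fate. Its levels were 2.22, 2.20 and 2.63 CPM in control and 2.26, 2.42 and 2.56 CPM in prolactin, a log2 change of 0.04 (SE 0.12, adjusted p = 0.914). Of these 5 genes, 4 had positive changes, none past the test, and their median was 0.04.

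None of the 11 macrophage surface and identity genes passed, which was 0 by edgeR, 0 by DESeq2, 0 by limma-voom and 0 with the unadjusted p below 0.05. The median log2 change was -0.002, with 5 changes positive and 6 negative. Csf1r was at 9.17, 9.18 and 10.3 CPM in control and 8.50, 9.48 and 9.69 CPM in prolactin (log2 change -0.05, SE 0.08, adjusted p = 0.827). Its exons overlap those of Hmgxb3 on the opposite strand. Cd68, the macrosialin gene of macrophage lysosomes, was at 12.5, 12.2 and 16.0 CPM in control and 12.2, 12.3 and 12.5 CPM in prolactin. Control replicate 3 alone stood above the rest here, and without it the log2 change of -0.14 (SE 0.10, adjusted p = 0.588) came to -0.004.

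Cd14, the lipopolysaccharide co-receptor gene, varied widely within each condition. It was at 16.0, 12.9 and 10.5 CPM in control and 19.5, 11.5 and 12.2 CPM in prolactin, highest in the library numbered 1 of either condition. The groups overlapped widely (log2 change 0.13, SE 0.21, adjusted p = 0.818). Itgax, the CD11c integrin gene carried by islet macrophages and dendritic cells, was at 6.23, 7.33 and 7.76 CPM in control and 7.0, 7.87 and 8.04 CPM in prolactin. The gene of a related integrin alpha chain of myeloid cells, CD11b, is Itgam, which was at 3.35, 3.39 and 3.84 CPM in control and 3.20, 3.61 and 3.75 CPM in prolactin. Per kilobase, Itgax stood at 1.54 and Itgam at 0.553, and neither differed beyond its spread between conditions (adjusted p = 0.689 and 0.995).

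Adgre1 ranged from 2.69 to 3.15 CPM in control and from 2.81 to 3.66 CPM in prolactin, and Aif1, the calcium-binding IBA1 gene, from 1.92 to 2.36 and from 2.03 to 2.33 CPM. Trem2, a lipid-sensing receptor that signals through the adaptor TYROBP, was at 2.90, 3.22 and 3.23 CPM in control and 2.91, 3.15 and 2.96 CPM in prolactin, nearly level over the libraries. Cx3cr1 was at 3.24, 4.0 and 4.35 CPM in control and 2.68, 3.44 and 3.73 CPM in prolactin. Its log2 change of -0.23 was within the spread of the libraries (SE 0.15, adjusted p = 0.535). The scavenger receptor genes were low: the mannose receptor gene Mrc1 lay between 0.836 and 1.23 CPM in control and between 1.10 and 1.85 CPM in prolactin, highest in prolactin replicate 1. Cd163, the haemoglobin scavenger receptor gene, was at 0.0691 to 0.181 CPM over all 6 libraries, the lowest per kilobase of the 35 genes, on 16 to 81 reads.

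**Figure D3:**
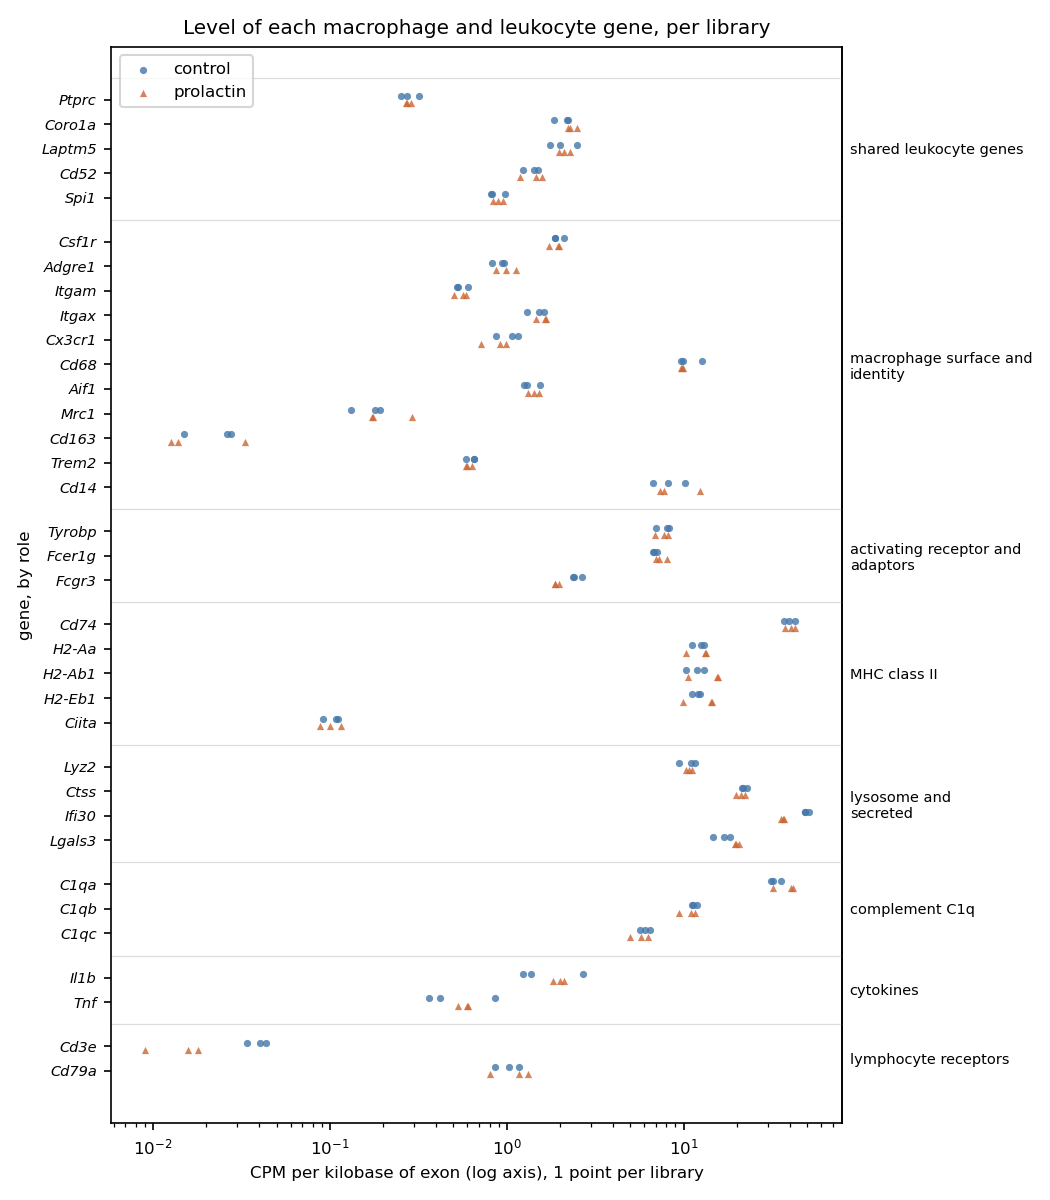
CPM per kilobase of exon on a log axis for each of the 35 genes, 1 point per library, circles for control and triangles for prolactin. Ifi30, Cd74 and C1qa have the highest levels and Cd163 and Cd3e the lowest, and control and prolactin points mix in most rows; Ifi30 and Fcgr3 are rows where the triangles lie to the left of all circles.

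The 3 genes of activating receptors and adaptors divided. Fcgr3 encodes the low-affinity IgG receptor CD16 of myeloid cells, and was at 4.17, 4.61 and 4.09 CPM in control against 3.45, 3.27 and 3.27 CPM in prolactin. All prolactin libraries lay below all controls, with means of 4.29 ± 0.28 and 3.33 ± 0.11 CPM (SD, n = 3), yet the log2 change of -0.36 did not pass edgeR's test (SE 0.09, unadjusted p = 0.0035, adjusted p = 0.129). DESeq2 called it, with an adjusted p of 0.010 here. The authors' deposited table gives the same adjusted p of 0.010. Its log2 changes of the members differ from that DESeq2 fit by at most 6.8e-13, so it is not a second result. In the other alternatives the adjusted p of Fcgr3 ranged from 0.059 to 0.434. Fcgr3 shares much of its sequence with other Fc receptor genes, so reads could be divided between them. For the partner chains the values were different.

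Fcer1g, the signalling gamma chain that Fc receptors need at the surface, was at 6.21, 5.87 and 5.91 CPM in control and 6.13, 7.0 and 6.35 CPM in prolactin (log2 change 0.11, SE 0.08, adjusted p = 0.578). Tyrobp, the DAP12 adaptor gene, was at 4.68, 5.51 and 5.40 CPM in control and 4.60, 5.48 and 5.19 CPM in prolactin (log2 change -0.03, SE 0.10, adjusted p = 0.923). Per length, Fcgr3 stood at 0.338, 0.395 and 0.348 of Fcer1g in the control libraries and at 0.284, 0.235 and 0.259 in the prolactin libraries. This ratio was chosen after the values were seen and was given no test.

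Per kilobase, 4 of the 5 MHC class II genes were among the 8 highest of the set, and 0 of the 5 passed (0 by DESeq2, 0 by limma-voom, 0 with the unadjusted p below 0.05). Cd74 encodes the invariant chain that guides class II molecules to the lysosome. It was at 51.8, 55.5 and 59.8 CPM in control and 52.5, 57.0 and 60.4 CPM in prolactin, with means of 55.7 ± 4.0 and 56.6 ± 4.0 CPM (SD, n = 3; log2 change 0.02, SE 0.07, adjusted p = 0.912). H2-Aa, the alpha chain of I-A, was at 23.6, 24.5 and 20.8 CPM in control and 19.3, 24.7 and 25.1 CPM in prolactin (log2 change 0.00, SE 0.11, adjusted p = 0.990).

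The beta chain gene H2-Ab1 was at 16.8, 21.3 and 19.4 CPM in control and 17.4, 25.7 and 25.3 CPM in prolactin. The I-E beta chain gene H2-Eb1 was at 13.2, 14.2 and 14.6 CPM in control and 11.8, 17.1 and 17.0 CPM in prolactin. In H2-Aa, H2-Ab1 and H2-Eb1 alike, prolactin replicate 1 was well below prolactin replicates 2 and 3, so that the spread within the prolactin group exceeded the difference between the groups. The log2 change of H2-Ab1 was 0.25 (SE 0.15, adjusted p = 0.475) and that of H2-Eb1 0.13 (SE 0.13, adjusted p = 0.720). Without prolactin replicate 1 that of H2-Ab1 was 0.41, still short of the threshold (adjusted p = 0.169). Ciita, the co-activator that switches class II genes on, was at 0.581, 0.479 and 0.568 CPM in control and 0.462, 0.611 and 0.529 CPM in prolactin (log2 change -0.03, SE 0.17, adjusted p = 0.962), and its exons overlap Dexi on the opposite strand.

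The chains that pair in one molecule, H2-Aa and H2-Ab1, stood close to 1 to 1 per length, with a ratio of H2-Ab1 to H2-Aa of 0.960 ± 0.129 in control and 1.13 ± 0.08 in prolactin (SD, n = 3), overlapping between conditions. Class II promoters are known for a conserved Y box bound by the factor NF-Y. The 150 bases upstream of the start site are shown for the 2 of the I-A and I-E chain genes matched to a RefSeq promoter (GRCm38.p6, the assembly of mm10). Capitals mark ATTGG or its reverse complement CCAAT. A link of these letters to the levels in any library was not tested. H2-Aa lies on the minus strand at chr17:34287824-34287973 and H2-Eb1 on the plus strand at chr17:34305717-34305866.
H2-Aa: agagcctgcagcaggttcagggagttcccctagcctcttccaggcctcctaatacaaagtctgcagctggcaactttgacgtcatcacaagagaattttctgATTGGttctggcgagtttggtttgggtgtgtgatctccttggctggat
H2-Eb1: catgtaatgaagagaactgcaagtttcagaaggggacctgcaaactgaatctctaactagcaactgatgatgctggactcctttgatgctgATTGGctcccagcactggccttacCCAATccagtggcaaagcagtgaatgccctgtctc

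ATTGG began 48 bases upstream of the start site in H2-Aa and 59 in H2-Eb1, in both within the longer CTGATTGG, and H2-Eb1 held CCAAT at 35 bases as well. Searched on both strands from 250 bases before to 50 bases after the start, ATTGG was found in 37.4% of 32851 RefSeq promoter windows and in 10 of the 25 members that have one, and CTGATTGG in 4.1% of windows and in H2-Aa and H2-Eb1 alone among the members. A match is a description of letters, not a sign of binding.

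The lysosomal and secreted genes held the one change that passed. Ifi30 encodes GILT, a thiol reductase that opens disulphide bonds of proteins in the lysosome so that they can be presented on MHC class II, and whose gene is induced by interferon gamma. It was at 47.5, 47.6 and 50.3 CPM in control and 34.9, 36.1 and 35.8 CPM in prolactin. The groups were far apart and each was tight, with means of 48.5 ± 1.6 and 35.6 ± 0.6 CPM (SD, n = 3), on 8097 to 25517 reads per library. In prolactin Ifi30 stood at 0.73-fold its control level (log2 change -0.45, SE 0.05, edgeR adjusted p = 0.0059). The authors' deposited table gives a log2 fold change of -0.44 with an adjusted p of 1.5e-08, the same values as the DESeq2 fit here. The call was lost without prolactin replicate 2 (adjusted p = 0.063), without prolactin replicate 3 (adjusted p = 0.059) or with these replicates summed to 1 library (adjusted p = 0.060), while the log2 change lay between -0.46 and -0.42 in all 15 alternatives.

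The lysosomal genes Ctss and Lyz2 did not pass. Ctss, the cathepsin that trims the invariant chain, was at 29.3, 31.2 and 29.2 CPM in control and 26.9, 30.2 and 28.8 CPM in prolactin (log2 change -0.06, SE 0.06, adjusted p = 0.691). Lyz2, the macrophage lysozyme gene, was at 11.9, 14 and 14.7 CPM in control and 13.1, 14.2 and 13.6 CPM in prolactin (log2 change 0.02, SE 0.09, adjusted p = 0.955), and its close relative Lyz1 may share reads with it. Per length, Ifi30 stood at 2.25, 2.12 and 2.39 times Ctss in the control libraries and at 1.80, 1.66 and 1.72 times in the prolactin libraries. Its ratios to Cd68 and to Lyz2 also did not overlap between conditions. These ratios were chosen after the values were seen. Ifi30 was the highest of the 35 genes per kilobase, and which islet cells its RNA came from was not tested. Marker genes of other islet cells differed between the conditions too. Stromal and endothelial sums were higher in prolactin, as given above. The sum of 10 endocrine genes overlapped, at 144800 to 163400 CPM in control and 146300 to 150600 CPM in prolactin. Of these 10 genes Sst, the delta-cell hormone gene, was lower, at 2410, 2260 and 2530 CPM in control and 1860, 1800 and 1810 CPM in prolactin (log2 change -0.40, SE 0.07, edgeR adjusted p = 0.049), a call kept in 1 of the 6 fits without 1 library (adjusted p from 0.037 to 0.279). Ppy, the pancreatic polypeptide gene, was at 3430, 3610 and 3150 CPM in control and 2600, 1800 and 1720 CPM in prolactin and did not pass (adjusted p = 0.071). The part of these cells in the Ifi30 result was not tested.

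Ifi30 lies on chromosome 8 from 70762774 to 70766663 (mm10, minus strand), and its exons overlap no other gene model. The 150 bases upstream of its RefSeq start site, chr8:70766664-70766813 on the minus strand of GRCm38.p6, are shown since it is the gene that fell; they hold neither ATTGG nor CCAAT.
Ifi30: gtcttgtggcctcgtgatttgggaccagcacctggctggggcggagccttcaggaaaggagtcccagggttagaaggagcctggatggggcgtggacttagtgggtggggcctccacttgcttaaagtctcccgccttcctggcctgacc

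The palindromic motif TTCNNNGAA, a form that STAT factors are known to bind, was found in 8.3% of all promoter windows and in 0 of the 25 members' windows, Ifi30 included. GAGGAAGT, a form of the PU.1 site, was found in 3.2% of windows and in those of Ctss and C1qc among the members. Both were searched on both strands, TTCNNNGAA and CTGATTGG having been chosen after the data were seen, and the absence of these letters in a short window says nothing of the factors.

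Lgals3, the galectin-3 gene, which macrophages share with duct and stromal cells, was at 31.6, 33.8 and 27.2 CPM in control and 38.2, 36.6 and 36.1 CPM in prolactin. All prolactin libraries were above all controls, with means of 30.8 ± 3.4 and 37.0 ± 1.1 CPM (SD, n = 3). The log2 change of 0.26 did not pass (SE 0.08, unadjusted p = 0.0085, adjusted p = 0.177). Stromal genes also stood higher in the prolactin libraries, as given above, and 8 duct-cell genes summed to 1185 to 1761 CPM in control and 1476 to 2031 CPM in prolactin. Their part in the values of Lgals3 was not tested.

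**Figure D4:**
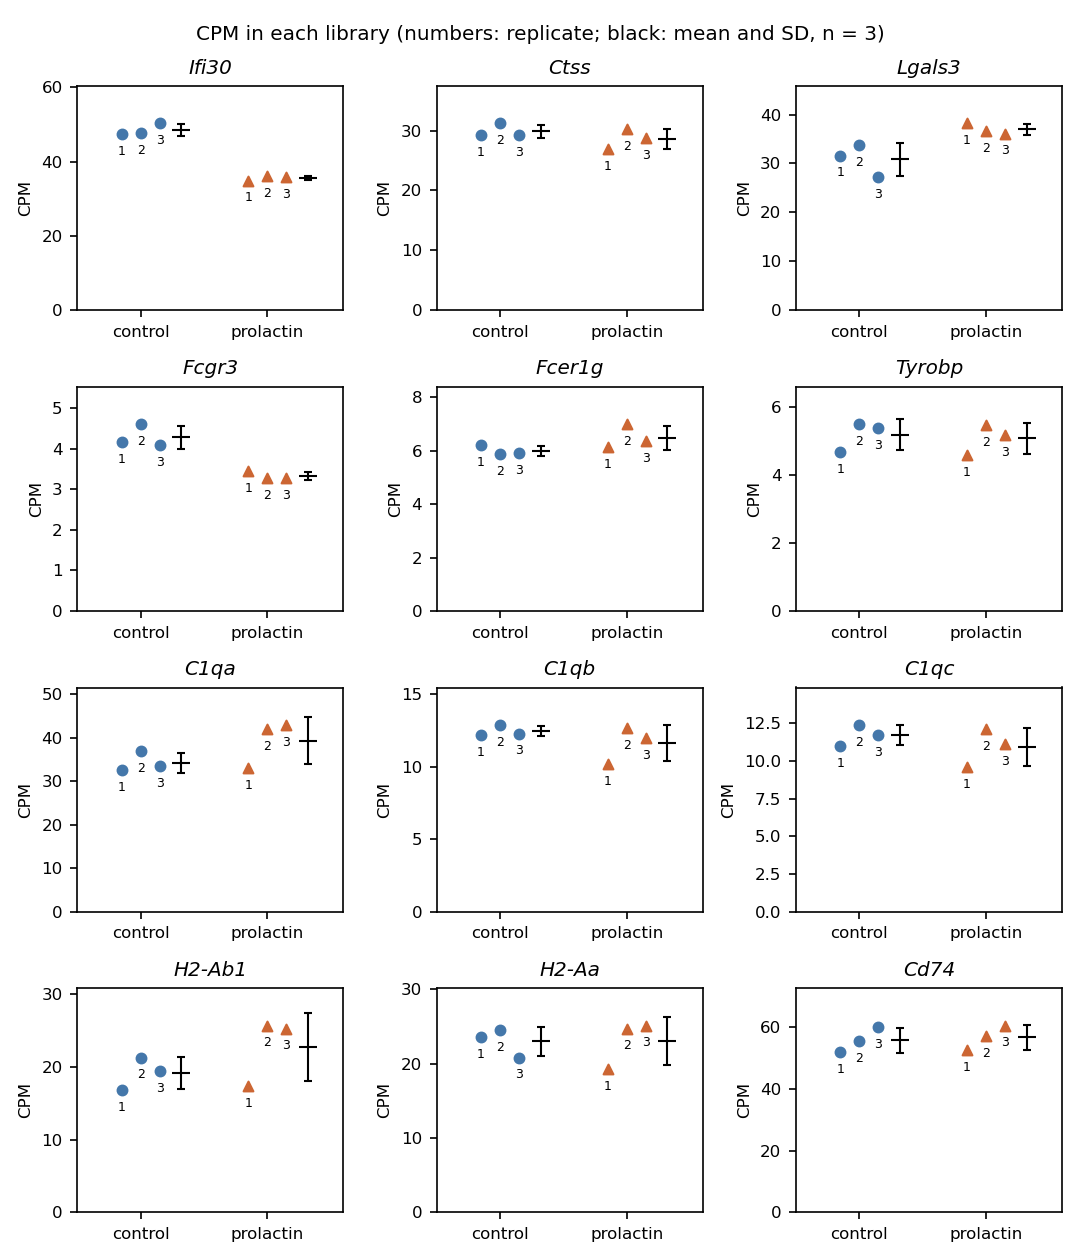
CPM in each library for 12 of the genes, with the replicate number under each point and the mean and SD (n = 3) in black; axes start at 0. Ifi30 and Fcgr3 are lower in all prolactin libraries and Lgals3 higher, while prolactin replicate 1 lies below replicates 2 and 3 for C1q and class II genes.

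The C1q genes encode the 3 chains of the first complement component and lie side by side on chromosome 4. None passed, which was 0 of 3 by edgeR, DESeq2 and limma-voom and 0 with the unadjusted p below 0.05. C1qa was at 32.5, 36.9 and 33.5 CPM in control and 33.1, 42.1 and 43.0 CPM in prolactin (log2 change 0.20, SE 0.10, edgeR adjusted p = 0.400). C1qb was at 12.2, 12.9 and 12.3 CPM in control and 10.2, 12.7 and 12 CPM in prolactin (log2 change -0.10, SE 0.09, adjusted p = 0.651). C1qc was at 11, 12.4 and 11.7 CPM in control and 9.57, 12.1 and 11.1 CPM in prolactin (log2 change -0.10, SE 0.09, adjusted p = 0.679). As with class II, prolactin replicate 1 was the lowest of its group for all 3 chains.

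Ratios of the chains within a library compare them free of that library's overall level. C1qa stood at 2.78, 2.99 and 2.85 times C1qb per length in control replicates 1, 2 and 3 and at 3.38, 3.48 and 3.73 times in prolactin replicates 1, 2 and 3, so that the groups did not overlap. The ratio of C1qb to C1qc was 1.89 ± 0.06 in control and 1.90 ± 0.03 in prolactin (SD, n = 3). The ratios were chosen after the values were seen, carry no test, and do not tell which chain moved.

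The cytokine genes differed most between libraries of the control group. Il1b was at 5.15, 2.61 and 2.35 CPM in control and 3.84, 4.02 and 3.47 CPM in prolactin, and Tnf at 1.40, 0.593 and 0.684 CPM in control and 0.980, 0.869 and 0.989 CPM in prolactin. Control replicate 1 was the highest of all 6 libraries for both, and the other controls were the lowest. The log2 changes of Il1b (0.16, SE 0.26, edgeR adjusted p = 0.832) and Tnf (0.07, SE 0.30, adjusted p = 0.940) did not pass. Without control replicate 1 they were 0.61 (adjusted p = 0.084) and 0.57 (adjusted p = 0.215). Il1b overlaps the antisense gene Il1bos, which averaged 0.546 CPM, and their reads cannot be told apart without strand.

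The lymphocyte receptor genes were near the limit of detection or low. Cd3e, a chain of the T-cell receptor complex, had 31, 17 and 13 reads in control and 6, 3 and 6 reads in prolactin, which is 0.0577, 0.0626 and 0.0486 CPM against 0.0259, 0.0129 and 0.0227 CPM. It met the filter on low counts through the control libraries alone, the 1 member of the 35 to do so, and its log2 change did not pass (-1.44, SE 0.42, adjusted p = 0.173). Cd79a, a signalling chain of the B-cell receptor, was at 1.25, 1.71 and 1.51 CPM in control and 1.17, 1.71 and 1.93 CPM in prolactin (log2 change 0.11, SE 0.20, adjusted p = 0.850).

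**Figure D5:**
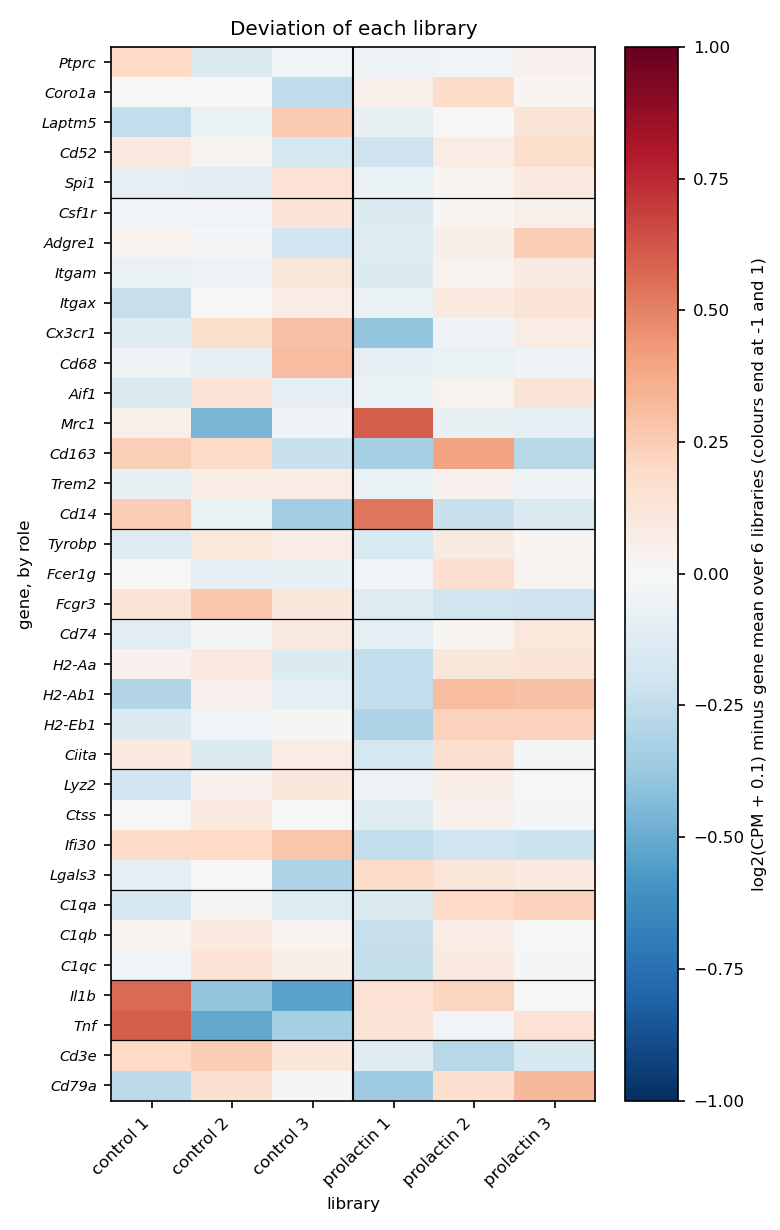
Log2(CPM + 0.1) of each gene in each library minus its mean over the 6 libraries; red is above and blue below, and lines part the roles. Il1b and Tnf stand out in control replicate 1 and Mrc1 and Cd14 in prolactin replicate 1, while Ifi30 and Fcgr3 change colour between the conditions.

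Within the prolactin group, replicate 1 was the lowest library for 27 of the 35 genes. The median deviation of the set from its mean over the libraries was -0.12 on the log2 scale in prolactin replicate 1 and 0.06 and 0.04 in prolactin replicates 2 and 3, against -0.03, 0.01 and 0.01 in control replicates 1, 2 and 3. It reached -0.25 for class II and -0.23 for C1q in prolactin replicate 1. That library was at the same time the highest for stromal genes, at 0.55 above their mean. Leaving it out moved the median change of the set from 0.02 to 0.06.

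Of the genes of the same pathways outside the set, 1 of 74 tested was higher and 0 were lower in edgeR's test. With the unadjusted p below 0.05 there were 8 higher and 5 lower, while DESeq2 called 4 higher and 2 lower and limma-voom 1 higher and 0 lower. The unadjusted counts stand beside 7.78% higher and 6.68% lower over all genes tested. The DESeq2 counts stand beside 4.1% higher and 1.6% lower of the genes that it gave an adjusted p. Among the further myeloid genes, 17 of 18 did not pass. Mpeg1, which encodes a pore-forming protein of macrophages and was picked for its level, was at 36.0, 37.9 and 35.7 CPM in control and 33, 36.8 and 38.8 CPM in prolactin.

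Of 10 myeloid growth factors and receptors 0 passed edgeR's test (2 higher and 0 lower with the unadjusted p below 0.05, 2 higher by DESeq2, 0 by limma-voom), with 8 changes positive. The 10 genes summed to 111.7 to 115.5 CPM in control and 127.7 to 131.2 CPM in prolactin, without overlap. Csf1 and Csf2ra made up most of that sum, and the groups of Csf2ra overlapped. Csf1, the ligand of CSF1R, was at 57.9, 57.5 and 47.1 CPM in control and 66.9, 63.3 and 65.0 CPM in prolactin (log2 change 0.26, SE 0.08, adjusted p = 0.183). Il34, the second ligand of that receptor, was at 4.71, 4.23 and 3.70 CPM in control and 7.35, 5.78 and 5.40 CPM in prolactin (log2 change 0.55, SE 0.14, adjusted p = 0.118). In both the groups did not overlap, and both were among the DESeq2 calls. Csf1 and Il34 were the only 2 of the 10 genes with all prolactin libraries above all controls. Over all genes tested that share was 11.3%. Their receptor gene Csf1r, given above, did not pass.

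Of the class II accessory genes, 6 of 8 were tested and 0 passed (1 higher and 1 lower unadjusted, 0 by DESeq2 or limma-voom). The 8 genes summed to 68.41 to 73.29 CPM in control and 65.97 to 67.12 CPM in prolactin. Rfx5 and Rfxap made up most of that sum, with log2 changes of -0.11 and -0.03 (edgeR adjusted p = 0.37 and 0.82). Of the 6 tested genes, 2 changes were positive and 4 negative. The peptide-exchange chains H2-DMa (log2 change -0.30, adjusted p = 0.28) and H2-DMb1 (0.38, adjusted p = 0.30) had opposite signs. Of 17 inflammatory mediators and receptors, 16 were tested and 0 passed (1 higher and 3 lower unadjusted, 0 higher and 2 lower by DESeq2, 0 by limma-voom). The 17 genes summed to 966.3 to 988.4 CPM in control and 878.5 to 915.2 CPM in prolactin. Most of that sum was Il1r1 alone, so it does not describe the list. Of the 16 tested genes, 11 changes were positive and 5 negative, with a median log2 change of 0.11. Il1r1, the interleukin-1 receptor gene and one that endocrine cells are known to express highly, was at 733, 746 and 740 CPM in control and 635, 634 and 633 CPM in prolactin (log2 change -0.22, SE 0.06, adjusted p = 0.126). The inducible nitric oxide synthase gene Nos2 was at 2.20, 1.58 and 1.88 CPM in control and 1.45, 0.937 and 0.956 CPM in prolactin (log2 change -0.76, SE 0.20, adjusted p = 0.137).

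Several mediators were highest in the library numbered 1 of either condition, as Cd14 was. Il6 was at 17.6, 9.81 and 7.50 CPM in control and 17.7, 12.1 and 11.7 CPM in prolactin, and the prostaglandin synthase gene Ptgs2 at 21.9, 13.7 and 12.1 and at 25.6, 17.6 and 17.9 CPM. Il1rn, the interleukin-1 receptor antagonist gene, was at 12.2, 8.10 and 6.93 CPM in control and 11.9, 9.37 and 9.28 CPM in prolactin. These 3 genes were named after their values were seen, and their changes did not pass in the fit on condition alone (adjusted p from 0.51 to 0.75), though Ptgs2 passed with the replicate number as a further term (adjusted p = 0.0333). The labels do not say whether libraries numbered 1 share an animal, a day or a culture.

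Among the 43 genes of T and NK, B and plasma, neutrophil, dendritic and mast cells, 24 were tested and 0 passed (1 higher and 1 lower unadjusted, 0 by DESeq2 or limma-voom). The sums of these 43 genes overlapped, at 12.54 to 22.78 CPM in control and 14.46 to 22.79 CPM in prolactin. The smallest p-values by lineage belonged to Zap70 and Cd4 for T and NK cells (adjusted p = 0.224 and 0.427), Mzb1 and Cd79b for B and plasma cells (adjusted p = 0.412 and 0.761), Mmp8 and Ltf for neutrophils (adjusted p = 0.186 and 0.756) and Clec9a and Ccr7 for dendritic cells (adjusted p = 0.482 and 0.682). S100a9, a calprotectin chain, was at 6.76, 5.65 and 2.51 CPM in control and 7.33, 2.67 and 2.43 CPM in prolactin, so that both conditions held high and low libraries.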

How the data were processed

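The deposited files hold whole-number read counts per gene name, made by the authors with featureCounts 2.0.3 and GENCODE vM10 models, per the file headers. Mouse build mm10, SAMtools 1.21, Subread 2.1.0 and DESeq2 are named by the submitters' processing notes, and no source used here names the aligner. Strand and pair counting were not switched on in the recorded command, so both mates of a pair may be counted (53.9% to 56.3% of counts from 1 to 20 were even), and no interval from counts alone is given. The authors' deposited table, per the file headers, holds log2 fold changes and adjusted p-values.

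Counts were tested with edgeR 4.0.16 (R 4.3.3) after TMM scaling and filterByExpr at a minimum count of 10 and a minimum total of 15, with a quasi-likelihood test of condition over all 6 libraries, two-sided, Benjamini-Hochberg adjustment over all genes and a threshold of 0.05. The SE comes from the test statistic. DESeq2 1.42.0 and limma-voom (limma 3.58.1) were alternatives, with other scalings and filters, the replicate block, each library left out, prolactin replicates 2 and 3 summed, and halved counts. The procedure was tested on simulated data. Members and lists were chosen with earlier results of these data known. All 35 members are named, with library values for those past the test and for up to 4 per role with the highest level, and further ones added after their values were seen; of other lists, genes past the test are named, or else the 2 with the smallest p-values. Some genes of the other lists are counted but not reported here.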

Additional observations from a re-analysis of the deposited data

How the results depend on the processing

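The 15 alternatives gave 0 members higher in each, and 1 member lower in all but these: DESeq2 called 2 lower (Ifi30 and Fcgr3), summing prolactin replicates 2 and 3 gave 0, and leaving out 1 library gave 0 to 1, with 0 without prolactin replicate 2 or 3. The median log2 change of the members lay between -0.0263 and 0.0608, within the spread between replicates. Members past the threshold in neither fit changed sign in some alternative in 15 cases, and 20 members had 1 sign throughout. Over all genes, 181 calls became 1079 with DESeq2 (which uses its own filter in place of that on low counts, so both differ), 597 with no filter on low counts, 598 with the replicate block, 44 with prolactin replicates 2 and 3 summed and 40 to 576 without 1 library (prolactin left out: replicate 2 gave 40, replicate 3 gave 41 and replicate 1 gave 94; control left out: replicate 2 gave 73, replicate 1 gave 136 and replicate 3 gave 576). In the other pathway lists, the 1 call became 6 with DESeq2, 3 with no filter, 4 with the replicate block (among them Il34, adjusted p = 0.0187, Nos2, 0.0279, and Ptgs2, 0.0333), 0 with the replicates summed and 0 to 1 without 1 library. The cause was not tested.

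The labels do not say that libraries of the same number are paired, so they were not treated as pairs. Their deviations had correlations of 0.205, 0.121 and -0.028 for numbers 1, 2 and 3. Control replicate 2 correlated alike with prolactin replicates 2 and 3 (0.121 and 0.118), which were close to each other. These values therefore cannot decide on pairing, and whether samples of 1 number share a source is not known. With the replicate block the adjusted p of Ifi30 was 0.0036. Of the genes under 1 CPM, Cd163 and Cd3e rest on few reads, at 16 to 81 and 3 to 31 per library. Ciita and Tnf had 107 to 312 and 161 to 753 reads per library. Shifts of several times the SE of a gene could still fail the test, as those of Fcgr3 and Lgals3 did.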
